A study of Mus musculus with 4 samples.

Results

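The gene for the leptin receptor, Lepr, was described together with 5 partners: Leprot and Leprotl1, which encode small membrane proteins that control how much receptor reaches the cell surface, Jak2, the kinase bound to the receptor, Stat3, the transcription factor it activates, and Socs3, the feedback inhibitor of that signal. The 6 genes are 6 of the 22180 with a value on the arrays, and 7 of the 41345 probe sets name one of them alone. Lepr was chosen by its measured log2 differences between these arrays, and the partners were chosen from known biology with those differences in view, so the values of Lepr are a description and not a test. Each gene except Socs3 had 1 probe set. For Socs3 the brighter of its pair was used.

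Liver RNA of C57BL/6 mice was combined within each group before labelling and put on 1 Affymetrix expression array per group. The first pair of pools came from 7 wild-type (WT) mice given 3 weeks of a 70% fructose diet and from 7 WT mice on regular chow. The second pair came from 6 mice null for Chrebp and from 4 WT mice, both given the fructose diet for 2 weeks. Chrebp is the name of the protein encoded by Mlxipl, a transcription factor that responds to sugar in hepatocytes. The labels give mice older than 2 months and both sexes in every pool. The series design sets the 3-week fructose pool against chow (the fructose comparison) and the Chrebp-null pool against the 2-week WT pool (the Chrebp-null comparison), and these comparisons share no array.

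Leptin is a hormone of fat cells that reports energy stores. Its receptor belongs to the class I cytokine receptors and exists as a long form, which carries the signal through JAK2 and STAT3, as short forms, and as a soluble form that binds leptin in blood. The liver is known to express mainly short forms and to release the soluble receptor. STAT3 switches on Socs3, whose product blocks the receptor and its kinase. The sources used here do not give which receptor forms the Lepr probe set reads.

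With 1 array of pooled RNA per group there was no replicate, so differences were taken between single log2 levels and carry neither an SD nor a p-value. A level was taken as measurable at or above 3.52, called the floor here, which is the middle value of all genes' mean levels. A gene was counted as different at 2-fold, a log2 difference of 1. As a yardstick, the WT pools on fructose for 3 and for 2 weeks, which came from different mice, stood 2-fold or more apart in 2.37% of 11648 genes, and the median absolute difference was 0.23. Mlxipl was lower in the Chrebp-null pool, at 8.09 against 9.83 in the 2-week WT pool. Hepatocyte markers, Alb, Ttr, Apoa1, Tat, Asgr1, Hnf4a and Cps1, were all above the floor, with a mean between 11.4 and 11.5 in the 4 pools.

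The promoter windows of Lepr, Leprot and Socs3 are shown because Lepr differed between the pools by far more than its neighbour Leprot and because Socs3 is the STAT3 feedback gene. The sequences are RefSeq's for mouse build GRCm38.p6, from 250 bases before to 50 bases after an annotated start. Entries were found for 5 of the 6 genes. The motifs searched, in either orientation, were CCAAT, the GC box with the letters GGGCGG, the E-box with the letters CACGTG, the STAT motif with the letters TTCNNNGAA, the TATA motif with the letters TATAAA, and the carbohydrate response element taken as a pair of E-boxes 5 bases apart. Capitals mark the matches found in the printed windows, and no marked matches overlap.
Lepr, chr4:101717157-101717456, plus strand: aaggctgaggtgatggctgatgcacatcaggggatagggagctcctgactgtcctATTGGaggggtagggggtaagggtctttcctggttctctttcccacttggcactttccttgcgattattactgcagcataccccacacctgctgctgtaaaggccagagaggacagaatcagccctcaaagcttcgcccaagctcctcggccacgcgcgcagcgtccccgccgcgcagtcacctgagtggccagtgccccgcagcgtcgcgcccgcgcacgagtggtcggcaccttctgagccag
Lepr, chr4:101717656-101717955, plus strand: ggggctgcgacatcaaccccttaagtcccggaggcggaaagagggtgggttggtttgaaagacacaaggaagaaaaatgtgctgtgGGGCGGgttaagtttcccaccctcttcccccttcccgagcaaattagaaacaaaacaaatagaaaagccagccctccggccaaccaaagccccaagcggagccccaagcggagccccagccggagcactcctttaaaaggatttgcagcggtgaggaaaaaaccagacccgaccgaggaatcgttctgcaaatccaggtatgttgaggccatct
Leprot, chr4:101647533-101647832, plus strand: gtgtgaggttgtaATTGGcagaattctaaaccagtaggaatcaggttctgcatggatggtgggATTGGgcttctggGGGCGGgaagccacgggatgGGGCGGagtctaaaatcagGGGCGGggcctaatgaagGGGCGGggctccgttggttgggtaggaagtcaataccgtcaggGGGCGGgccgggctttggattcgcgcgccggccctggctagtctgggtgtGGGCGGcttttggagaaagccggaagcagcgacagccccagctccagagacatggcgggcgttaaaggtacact
Socs3, chr11:117969317-117969616, minus strand: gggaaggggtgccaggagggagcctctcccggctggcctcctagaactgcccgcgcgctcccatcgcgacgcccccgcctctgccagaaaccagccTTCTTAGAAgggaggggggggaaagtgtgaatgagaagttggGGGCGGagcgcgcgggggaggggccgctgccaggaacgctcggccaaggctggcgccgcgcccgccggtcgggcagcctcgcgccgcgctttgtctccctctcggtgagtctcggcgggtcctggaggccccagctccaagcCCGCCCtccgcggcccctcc

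The windows differed in composition. The Leprot window held 6 GC boxes and 2 CCAAT motifs, while the Lepr windows held 1 CCAAT motif in the upstream one and 1 GC box in the other. A GC box stood in 35.7% and a CCAAT motif in 37.4% of the 32851 promoter windows of the table. The Socs3 window held 1 STAT motif, TTCTTAGAA, and such a motif stood in 8.30% of all windows. The E-box, the core of the sites that Chrebp binds, was in none of these 4 windows, and stood in 7.15% of all windows. It was also in none of the 10 windows of the 8 genes given below as nearest in profile to Lepr. The TATA motif was in none of the 4 printed windows, and stood in 13.6% of all windows. The exact pair of E-boxes matched 0 of the 32851 windows, so that search could not tell any window from another. A match is a run of letters and not a measured binding site. Its lack in these windows says nothing about sites elsewhere or about sites with other letters.

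Lepr was high in both WT fructose pools and low in the chow and Chrebp-null pools. Its level was 7.00 in the 3-week fructose pool, against 5.10 on chow. In the Chrebp-null pool it was 4.04, against 7.36 in WT mice on fructose for 2 weeks. All 4 levels lay above the floor, the lowest by 0.52, and RMA, the authors' summary method, tends to compress differences of dim probe sets.

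In the fructose comparison Lepr was higher by 1.91, a ratio of 3.75. It ranked 12 from the top among 11717 genes above the floor, of which 0.640% were at least 2-fold higher. The 2-week WT pool stood 2.26 above the same chow array, where 0.783% of 11622 genes were at least 2-fold higher and Lepr ranked 3 from the top. The fructose pools differed from each other by less, with Lepr lower by 0.36 at 3 weeks than at 2 weeks, and 32.2% of genes differed by at least that much.

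In the Chrebp-null comparison Lepr was lower, with a difference of -3.32 and a ratio of 9.98. It ranked 8 from the bottom among 11631 genes, of which 1.43% were at least 2-fold lower. Against the 3-week WT pool the null pool stood at -2.96, where 1.95% of 11772 genes were at least 2-fold lower. The null pool was also below chow, at -1.06, just past 2-fold, where 1.43% of 11720 genes were at least 2-fold lower. The order of the 4 levels was thus null, chow, 3-week and 2-week WT fructose, and only the last pair lay within 2-fold of each other. These differences share arrays and are not separate checks of one another.

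**Figure D1:**
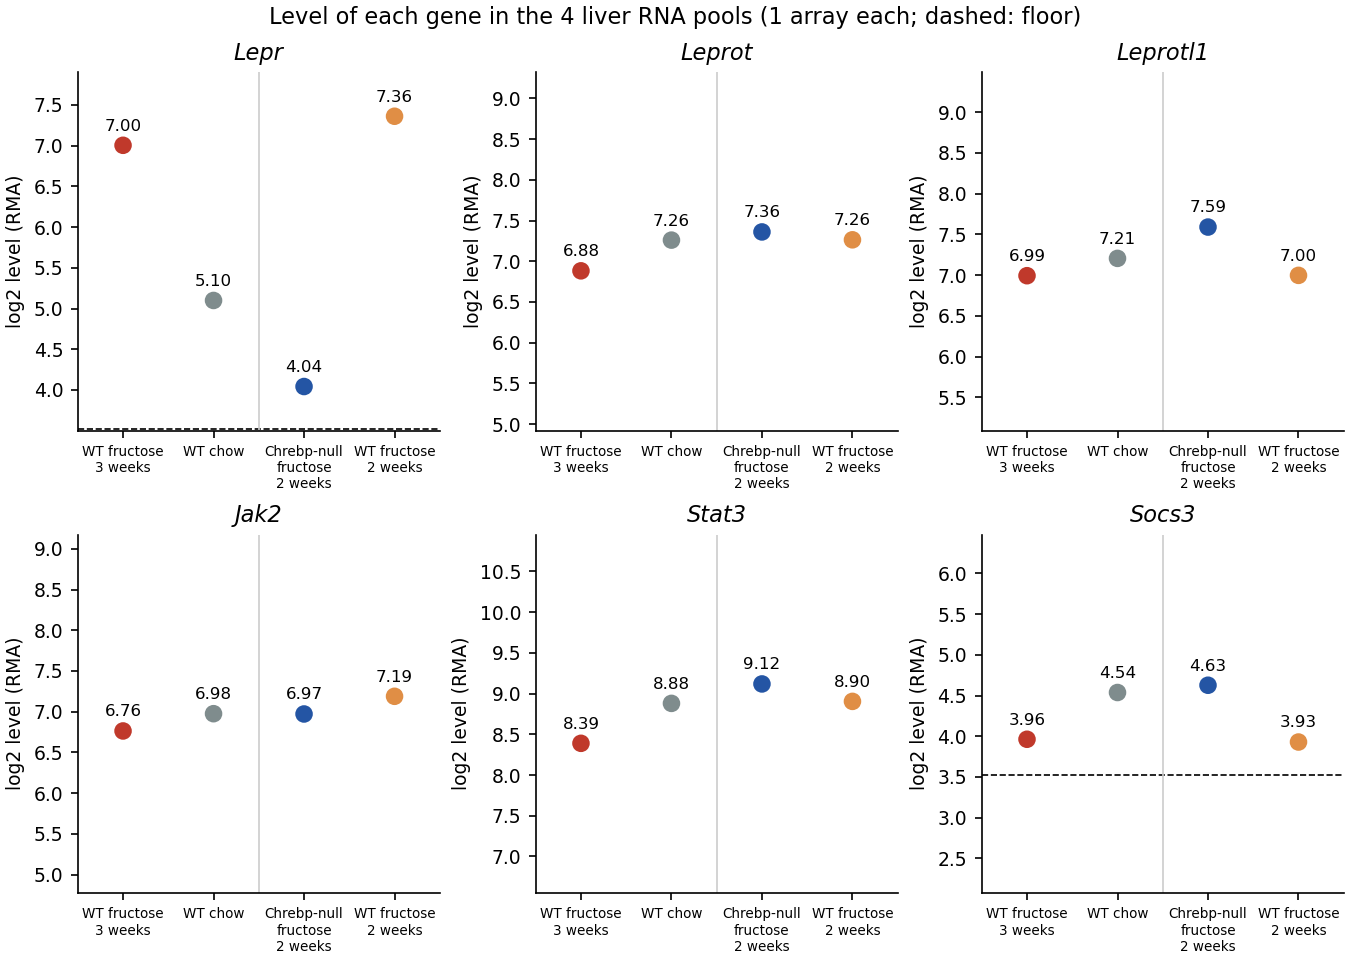
Log2 level (y axis) of each gene in the 4 pools (x axis), 1 point per array, with panels of equal height in log2 units and the floor of 3.52 dashed where it falls in range. Lepr spans 4.04 to 7.36, while each of the other genes stays within a range of 0.73.

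The range of Lepr over the 4 pools was 3.32, and it ranked 31 among 12194 genes with at least 1 array above the floor, for which the median range was 0.47. Among its partners the range was 0.73 for Stat3, 0.70 for Socs3, 0.60 for Leprotl1, 0.48 for Leprot and 0.43 for Jak2. None of these 5 passed 2-fold in any pair of pools.

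In pooled bulk RNA, fewer cells of a type and less RNA per cell cannot be told apart. Receptor-bearing cells other than hepatocytes were followed by marker lists. The 7 sinusoidal endothelial markers, all above the floor in every pool, had a mean of 7.51 in the 3-week fructose pool against 7.23 on chow, and of 7.28 in the null pool against 7.62 in the 2-week WT pool. Their median difference was 0.34 in the fructose comparison and -0.23 in the Chrebp-null comparison, beside -0.05 and 0.10 over all genes. On fructose 5 of 7 were above 0, and in the null pool 6 of 7 were below 0. Lyve1, a hyaluronan receptor of these cells, had the largest differences of the 7, at 0.81 and -1.01. The exceptions were Oit3 at -0.06 and Stab1 at -0.10 on fructose and Stab2 at 0.04 in the null pool. In the null pool over chow, where Lepr stood at -1.06, the endothelial markers had a median difference of 0.07. There 4 of 7 were above 0, and the median over all genes was 0.06. The part of these cells in the Lepr result was not tested. The 8 stellate cell markers had means of 7.04 against 7.19 and of 7.27 against 7.31 in the same pairs. Their median differences were -0.26 and 0.02, with 6 of 8 below 0 on fructose and 5 of 8 above 0 in the null pool.

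Sex-linked genes differed between the pools as well. Xist, expressed from the inactive X chromosome of females, read 7.04 in the null pool against 8.56 in the 2-week WT pool, and the Y-linked Eif2s3y read 7.34 against 6.51. The Y-linked Uty read 5.39 against 4.87 and Kdm5d 5.18 against 4.42 in the same pair. In the fructose comparison Xist read 8.77 against 8.84, Eif2s3y 6.00 against 6.12, Uty 4.67 against 4.03 and Kdm5d 4.07 against 4.02. The part of sex in the Lepr difference of the Chrebp-null comparison was not tested.

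Leprot and Leprotl1 encode endospanins, which hold the receptor inside the cell. Leprot, the gene next to Lepr on the same chromosome, read 6.88 in the 3-week fructose pool against 7.26 on chow. In the null pool it read 7.36, against 7.26 in the 2-week WT pool. Its differences of -0.38 and 0.10 lay far inside 2-fold, where the corresponding values of Lepr were 1.91 and -3.32.

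Leprotl1 read 6.99 in the 3-week fructose pool against 7.21 on chow, a difference of -0.21. In the null pool it read 7.59, against 7.00 in the 2-week WT pool. The null pool was thus the highest of the 4, by 0.59 over the 2-week pool and by 0.60 over the 3-week pool. In the Chrebp-null comparison 9.16% of genes were at least 1.5-fold higher, and Leprotl1 was among them at a ratio of 1.51. Removing the trend of the difference with level brought it to 0.52 and quantile normalization to 0.56, both under 1.5-fold.

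Of the other genes next to Lepr that could be assessed, none passed 2-fold in either comparison, as was true of most genes. The 4 protein-coding genes with a value that come before Lepr in the GRCm38.p6 gene order were Jak1, Ak4, Dnajc6 and Leprot. Jak1, another Janus kinase gene, stood at 0.16 in the fructose comparison and -0.02 in the Chrebp-null comparison. Ak4, a mitochondrial adenylate kinase, stood at 0.15 and -0.76. Dnajc6 and the 4 genes that come after Lepr, among them Pramel17 and Pramel19, read below the floor on all arrays.

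The signalling genes inside the cell showed differences under 2-fold. Jak2 read 6.76 in the 3-week fructose pool against 6.98 on chow, and 6.97 in the null pool against 7.19 in the 2-week WT pool. Both differences were negative, -0.21 and -0.22, and 51.7% and 49.7% of genes differed by at least as much. With the 2-week pool over chow the difference of Jak2 was 0.21, so its sign depended on which fructose pool was used.

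Stat3 read 8.39 in the 3-week fructose pool against 8.88 on chow, a difference of -0.49. It read 9.12 in the null pool against 8.90 in the 2-week WT pool, a difference of 0.21. The 3-week pool was the lowest of the 4, and the 2-week WT pool over chow stood at 0.02. These arrays measure mRNA, and the activity of STAT3 depends on its phosphorylation, which they do not read.

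Socs3 was lower in both WT fructose pools than in the other pools. It read 3.96 in the 3-week fructose pool against 4.54 on chow, a difference of -0.57, and the 2-week pool stood at -0.61 over chow. In the null pool it read 4.63 against 3.93 in the 2-week WT pool, a difference of 0.70 and a ratio of 1.62, which is past 1.5-fold as for 9.16% of genes. It was 0.54 with the trend removed, 0.58 after quantile normalization and 0.25 as the mean of both probe sets, each under 1.5-fold. The order of its pools was the reverse of that of Lepr in both comparisons, with differences under 2-fold and a lowest level 0.41 above the floor. The second Socs3 probe set lay below the floor on every array and stood at 2.65 in the null pool against 2.85 in the 2-week WT pool, so it did not show the same direction in that comparison.

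**Figure D2:**
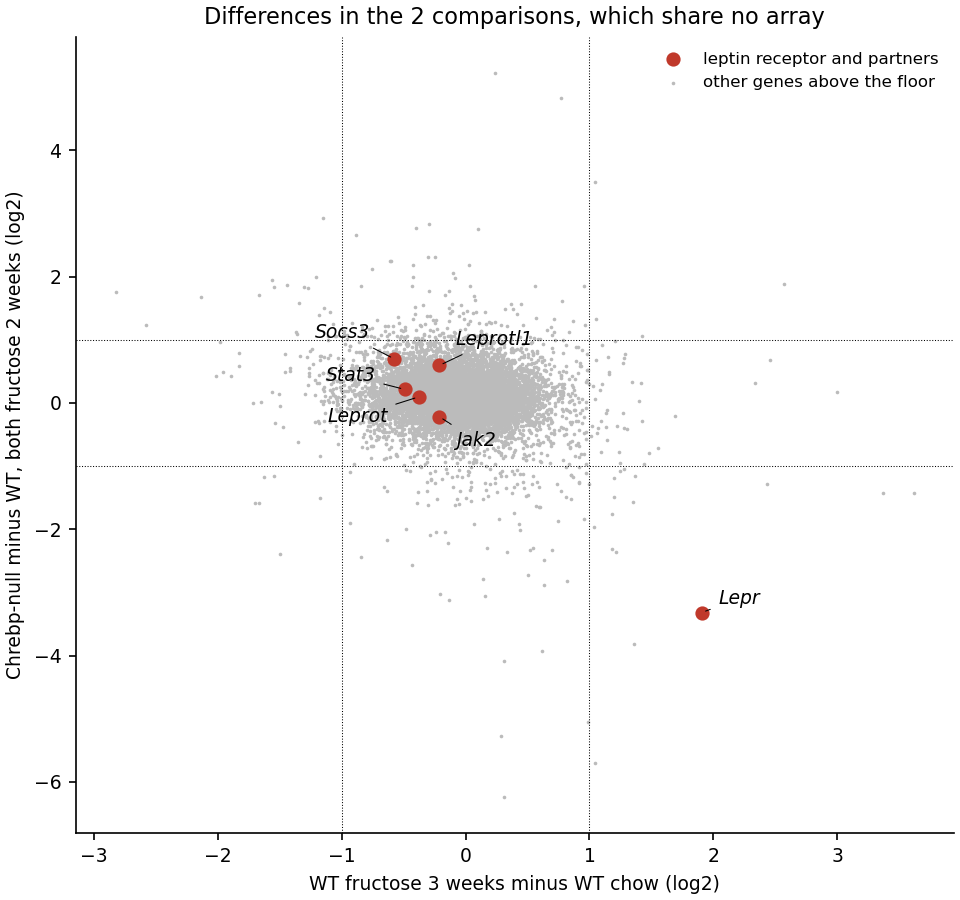
Each point is a gene above the floor, with its log2 difference in the fructose comparison on the x axis and in the Chrebp-null comparison on the y axis, and dotted lines mark 2-fold. Lepr lies at 1.91 and -3.32, in the lower right, while the 5 partners lie inside the 2-fold lines.

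Because these comparisons share no array, the genes that passed 2-fold in both could be counted. On fructose 75 genes were at least 2-fold higher, and in the null pool 166 were lower by that much. In both sets were 16 genes, 21.3% of the first set, beside 1.43% of all genes lower in the null pool. They were 9.64% of the second set, beside 0.640% of all genes higher on fructose. Lepr was one of the 16, and it had been chosen by its differences between these arrays. Only the pseudogene Serpina4-ps1 at -5.70 and the small RNA gene Scarna6 at -3.81 lay lower than Lepr in the Chrebp-null comparison among these 16, and their differences on fructose were 1.04 and 1.36. Me1, malic enzyme, Acaca, acetyl-CoA carboxylase, Pnpla3, a lipid droplet protein gene, and Fabp5, a fatty acid binding protein gene, act in lipid metabolism. The others were Mup21, Gabbr2, Sult1c2, Lrp2bp, Serpina12 and the small RNA genes Snora31, Mir669m-1, Snord73b and Snord13. Snord73b had the largest fructose difference of the 16, at 3.62, followed by Pnpla3 at 3.37.

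The genes whose profile was most like that of Lepr were found by the Euclidean distance between log2 profiles over the 4 arrays, each centred on its own mean. The 12193 profiles included small RNA genes, and 4 of these that ranked among the nearest, Snora31 at 0.90, Mir1948, Mir669m-1 and Snord89, were passed over. The 8 nearest other genes lay at distances from 1.08 to 1.48, against a median of 2.83 over all profiles. In order they were Pklr, liver pyruvate kinase, Lpin1, a phosphatidate phosphatase, Gabbr2, a subunit of the GABA-B receptor, G6pc, glucose-6-phosphatase, Me1, Tmie, a membrane protein of inner ear hair cells, Sult1c2, a sulfotransferase, and Acacb, the mitochondrial acetyl-CoA carboxylase. With 4 arrays a likeness of profiles is a description only.

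None of the 8 matched Lepr in size. Pklr stood at 0.51 in the fructose comparison and -2.72 in the Chrebp-null comparison, and G6pc at 0.70 and -2.33. Sult1c2 had the largest fructose difference of the 8, at 1.35, with -1.57 in the null pool.

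**Figure D3:**
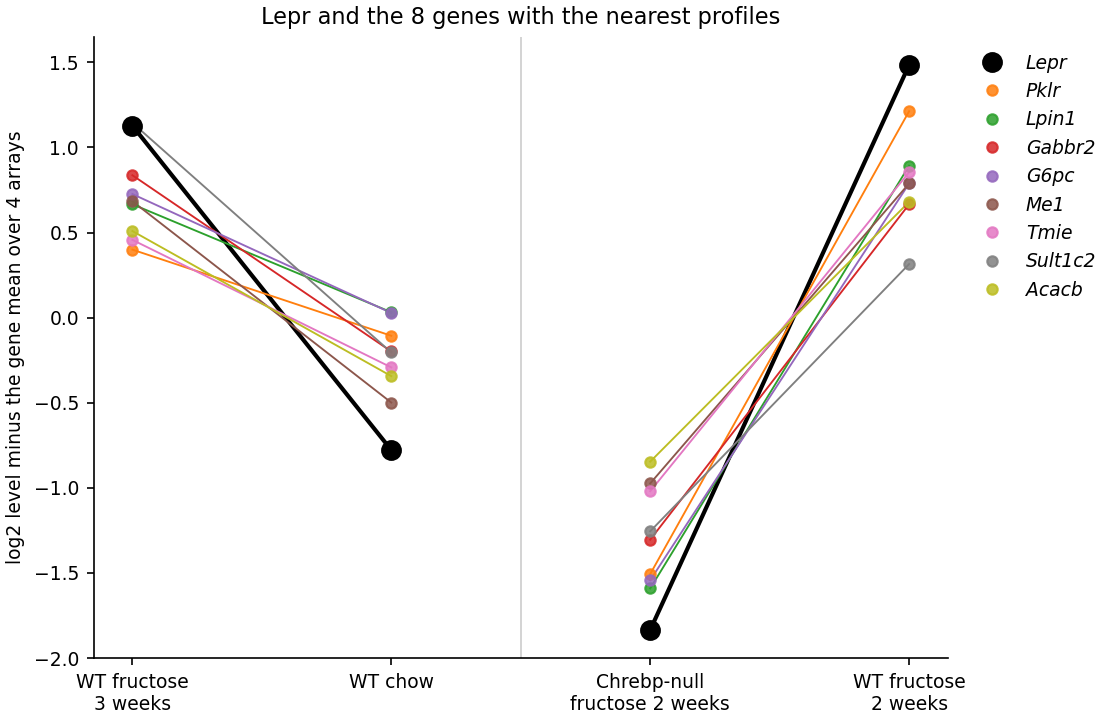
Log2 level minus the mean of the gene over the 4 arrays (y axis) in each pool (x axis), for Lepr in black and its 8 nearest genes in colour, with lines joining the pools of a comparison. Lepr has the lowest null and chow values and the highest 2-week WT value of the 9 genes.

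The ligands were examined next, from a list of 11 genes of which 10 had a value. Lep, which encodes leptin, read between 2.12 and 2.27 in the 4 pools, below the floor, as did Il6, Il11, Osm, Lif, Il10 and Il22. The 3 measured were Ctf1, Clcf1 and Il27, cytokines that signal through gp130-type receptors, and none passed 2-fold, as was true of most genes. Clcf1 stood at 0.68 in the Chrebp-null comparison, with 2 arrays below the floor. Of 5 adipocyte markers with a value, Adipoq, Plin1, Lep and Cidea were below the floor on every array.

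Other class I cytokine receptors that could be assessed stayed inside 2-fold in both comparisons. In this list 11 of 18 genes could be assessed in the fructose comparison and 13 in the Chrebp-null comparison. Over all genes 0.640% were at least 2-fold higher and 1.16% lower on fructose. In the Chrebp-null comparison 2.03% were higher and 1.43% lower, so counts of 0 do not set this list apart. The list medians of -0.09 and -0.04 stood beside -0.05 and 0.10 over all genes. Il6st, the shared signal chain gp130, stood at 0.04 and -0.04. Il6ra, the interleukin 6 receptor, was at -0.61 and -0.86, and Ghr, the growth hormone receptor, at 0.05 and -0.58.

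Signal components beyond the members showed 1 gene past 2-fold in the designed comparisons. Of the 15 assessed of 20 listed, Irs2, an adaptor of insulin and leptin signalling, was lower in the fructose comparison, at 6.02 against 7.44 on chow, a difference of -1.42, where 1.16% of all genes were at least 2-fold lower. It stood at -1.26 in the 2-week WT pool over the same chow array. In the Chrebp-null comparison it was at 0.55, and none of the 15 passed 2-fold, beside 2.03% higher and 1.43% lower over all genes. Irs1, its relative, stood at -0.93 and 0.37, and at 1.04 in the null pool over the 3-week WT pool, where 3.38% of all genes were at least 2-fold higher. Shc1, an adaptor to the MAP kinase path, stood at -0.82 and 0.05, and Tyk2, a Janus kinase, at -0.64 and -0.03. The list medians were -0.07 and -0.03.

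The brakes on JAK-STAT signalling other than Socs3 stayed inside 2-fold in both comparisons. Of 15 genes 12 could be assessed, with medians of -0.03 and 0.10. Over all genes 0.640% were at least 2-fold higher and 1.16% lower on fructose. In the Chrebp-null comparison 2.03% were higher and 1.43% lower, so this list is not set apart. Sh2b3, an adaptor that restrains JAK2, stood at -0.58 in the fructose comparison and Cbl, a ubiquitin ligase, at 0.54. Socs6 stood at 0.40 in the Chrebp-null comparison. Ptpn1, the phosphatase that removes phosphate from JAK2, stood at 0.10 and 0.25. Socs1 and Socs5 were below the floor on all arrays.

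Genes of receptor traffic and shedding also stayed inside 2-fold in both comparisons. Of 14 genes 13 could be assessed, with medians of -0.07 and 0.03. The shares of all genes past 2-fold, 0.640% higher and 1.16% lower on fructose, were small too. They were 2.03% higher and 1.43% lower in the Chrebp-null comparison, so this list is not set apart. Sort1, a sorting receptor, stood at -0.73 in the fructose comparison and 0.12 in the Chrebp-null comparison. Adam10 and Adam17, proteases able to cut receptors from the cell surface, stood at 0.11 and -0.30 on fructose and at -0.01 and 0.14 in the null pool. Lgals3, a galectin also made by macrophages, stood at 0.73 in the Chrebp-null comparison and at 1.03, just past 2-fold, in the null pool over the 3-week WT pool.

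The last list held 37 genes that STAT3 is known to switch on, and 35 could be assessed in the Chrebp-null comparison, where 5 were at least 2-fold higher and 1 lower, beside 2.03% higher and 1.43% lower over all genes, and the median was 0.16 against 0.10 over all. In the fructose comparison none of 33 was at least 2-fold higher and 3 were lower, Bcl6, Saa3 and Junb, beside 0.640% higher and 1.16% lower over all genes, with a median of -0.19 against -0.05. The same transcripts answer to other inflammatory signals, so the list does not single out STAT3.

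Among the 5 higher in the null pool, the acute phase genes stood out by size. Orm2, an acute phase glycoprotein gene, read 10.27 in the null pool against 7.44 in the 2-week WT pool, a difference of 2.83. Saa2, a serum amyloid gene, read 9.51 against 6.76, a difference of 2.75. Similar copies of both genes exist, so their probe sets may not separate the members of these families. Myc was higher by 1.86, Apcs, serum amyloid P, by 1.33 and Lcn2, lipocalin 2, by 1.14.

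These 5 did not all hold against the 3-week WT pool. There Saa2 stood at 2.84, Orm2 at 2.01 and Lcn2 at 2.34, while Myc stood at 0.36 and Apcs at 0.47. Bcl6, a transcriptional repressor with sex-biased expression in liver, read 5.45 in the 3-week fructose pool against 7.11 on chow, and 5.70 in the null pool against 7.28 in the 2-week WT pool. Its differences of -1.67 and -1.58 had the same sign in both comparisons, unlike those of Lepr. Marco, a macrophage scavenger receptor, read 8.21 in the null pool against 5.55 in the 2-week WT pool. The 7 Kupffer cell and macrophage markers, Marco among them, had a mean of 7.65 against 7.32 in these pools. Their median difference was -0.14, with 3 above 0 and 4 below, and Marco had the largest difference of the 7. Their part in the acute phase values was not tested.

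**Figure D4:**
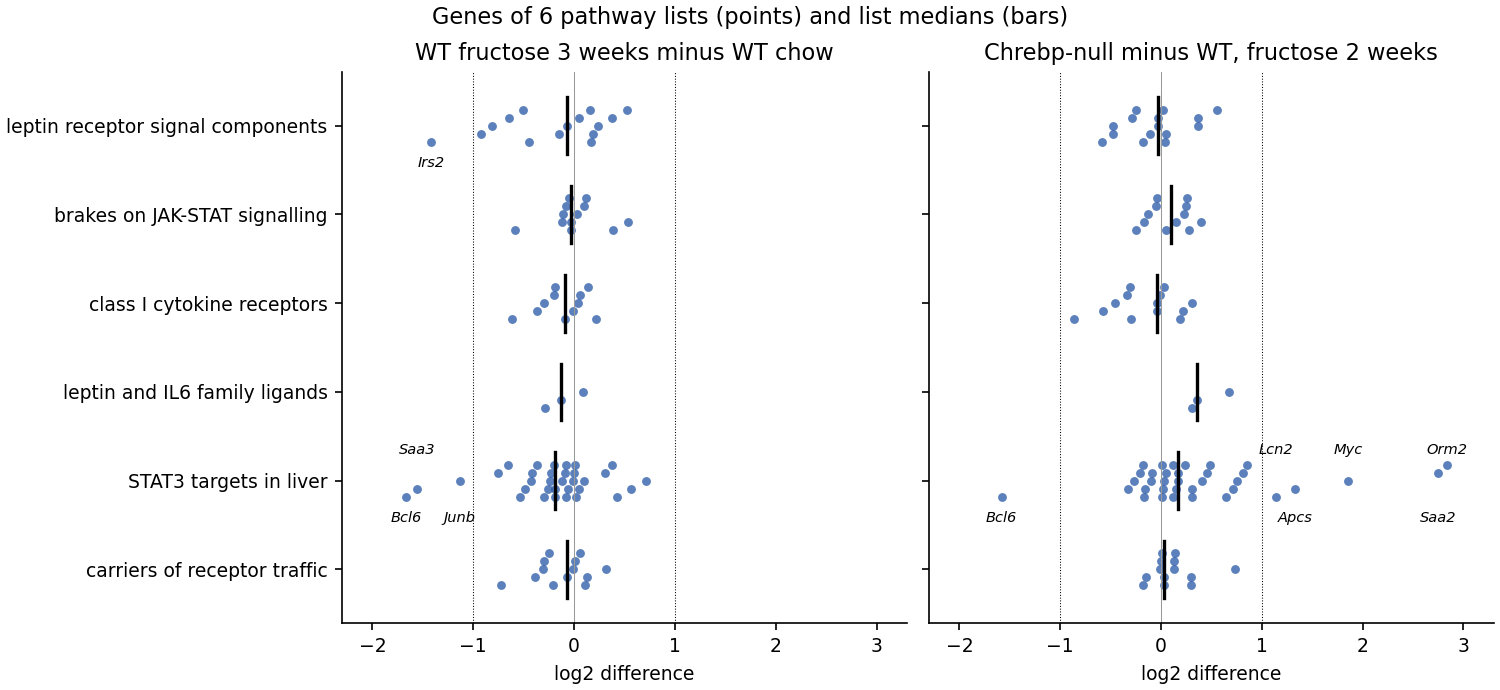
Log2 differences (x axis) of the genes of 6 lists (rows) that lay above the floor, in the fructose comparison on the left and the Chrebp-null comparison on the right, with black bars at list medians and dotted lines at 2-fold. Genes past 2-fold are named, 1 of them in the list of signal components and the rest among the STAT3 targets.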

How the data were processed

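RNA combined from several livers per group was measured on 4 Affymetrix arrays, 1 per group. The authors deposited log2 expression values for 41345 probe sets. RMA and affy are named as tools per the submitters' processing notes. The sources used here give no versions, settings or genome build, nor whether the 4 arrays were normalized jointly. The values were used as deposited and hold no read depth, so the number of arrays limits the precision. Array medians lay between 3.11 and 3.17.

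GEO's platform annotation gave 1 gene symbol to 23521 probe sets, several to 1814 and none to 16010, and only the first kind was used. Per gene the brightest probe set, by its mean level, was kept, which left 22180 genes. Entrez identifiers of 23328 probe sets were in the RefSeq table of GRCm38.p6, which also gave the gene order.

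Groups came from the labels. Differences were taken between arrays for genes whose higher array reached the floor, with no test. The named genes were the members, up to 4 per pathway list with the largest absolute difference in either designed comparison, and the 8 nearest profiles. Genes named outside that rule were chosen after their values were seen: checks and markers, neighbours, genes past 2-fold, genes below the floor, small RNA genes passed over, and Il6st, Ptpn1, Adam10 and Adam17. The members and lists were chosen with earlier results of these data known. Alternatives were no floor or one at the 75 percentile, median centring, quantile normalization, removal of the trend with level (lowess, fraction 0.3), 1.5-fold and 3-fold thresholds, averaged probe sets of a gene, and the WT fructose arrays exchanged or averaged. The procedure was tested on simulated data with little noise and changes past 2-fold in genes well above the floor. That run checks the code and does not measure the precision of these arrays. Python 3.11.15, numpy 2.4.6, pandas 2.3.3, statsmodels 0.14.6 and matplotlib 3.10.9 were used.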

Additional observations from a re-analysis of the deposited data

Results flagged for a closer look

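Over the same chow array, the WT fructose pools at 3 and at 2 weeks differed in sign for 18 of 78 named genes with a level above the floor. Each pool is 1 array, and the difference between the weeks was not tested. In 4 of them the weeks stood 2-fold or more apart. Over all genes 2.37% of 11648 stood that far apart, whether or not the sign over chow differed. Differences in sign were not counted over all genes, so the 18 do not set the named genes apart. Bcl6 stood at -1.67 at 3 weeks and 0.16 at 2 weeks, -1.83 apart. Mup21, one of the 16 genes counted in both comparisons, stood at 1.18 and -0.56, 1.74 apart. Myc stood at 0.56 and -0.94, 1.5 apart, and Lcn2 at -0.26 and 0.94, -1.20 apart. Lower at 3 weeks by less than 2-fold were Il6ra, -0.75 apart, Stat3 at -0.52, Eif2s3y at -0.51, Jak2 at -0.43, Oit3 at -0.42, Stab1 at -0.40 and Leprot and Hnf4a at -0.38 each. Higher at 3 weeks by less than 2-fold were Apcs, 0.86 apart, Pias1 at 0.40, Ctf1 at 0.37, Ak4 at 0.23, Ghr at 0.17 and Ptpn1 at 0.15.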

How the results depend on the processing

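No paired analysis was possible because each group has 1 array. A member's difference was read against a limit of 0.43, the SD over genes of the 3-week minus the 2-week WT level, since there is no replicate spread. Of 72 recomputed differences, 10 could not move because 5 members have 1 probe set to average, and 59 of the other 62 stayed within that limit. Some of these 59 were also fixed in advance. Median centring shifts every gene of a comparison by the same amount, and the array medians lay between 3.11 and 3.17, so it could not pass the limit. Exchanging the WT arrays moves a gene by its own 3-week minus 2-week difference, the quantity whose SD sets the limit. Within it, Jak2 turned to 0.21 in both comparisons with the other WT array and to 0.00072 on fructose with the mean of both, and Leprot turned to 0.004 on fructose with the other array. Lepr had the same sign under median centring, quantile normalization, trend removal and the exchanged or averaged WT arrays, from 1.87 to 2.26 on fructose and from -3.44 to -2.96 in the null pool. With the other WT fructose array, Stat3 moved to 0.025 in the fructose comparison and to 0.73 in the Chrebp-null comparison, and with the mean of its probe sets Socs3 moved to 0.25 in the Chrebp-null comparison. Removing the trend with level shifted the median of all genes by -0.10 in the Chrebp-null comparison.

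Counts of genes past 2-fold moved more. In the fructose comparison the 75 higher genes became 38 with the mean of both WT fructose arrays, 40 with the floor at the 75 percentile, 418 at 1.5-fold and 14 at 3-fold. The 136 lower became 77 with that mean, 826 at 1.5-fold and 15 at 3-fold. In the Chrebp-null comparison the 236 higher became 140 with the trend removed, 398 with the 3-week array, 87 with the higher floor, 1065 at 1.5-fold and 46 at 3-fold. The 166 lower became 110 with the higher floor, 441 at 1.5-fold and 54 at 3-fold. Removing the trend gave 93 higher and 105 lower genes in the fructose comparison, beside 140 higher and 225 lower ones in the Chrebp-null comparison. Other counts stayed within 1.5 times, and the cause of these moves was not tested. Levels near the floor, as for Socs3, limit what the arrays resolve.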

Other observations

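Lifr, the leukaemia inhibitory factor receptor and a relative of the leptin receptor, was lower in both 2-week pools than in the other pools. It read 10.11 in the 3-week fructose pool and 10.29 on chow, against 8.84 in the null pool and 9.29 in the 2-week WT pool. The null pool stood at -1.27 against the 3-week WT pool and at -1.45 against chow. In those pairs 1.95% and 1.43% of all genes were at least 2-fold lower. The 2-week WT pool stood at -0.999 against chow.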
